A study of Caenorhabditis elegans with 30 samples.

Results

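The left arm of chromosome III of C. elegans, as examined here, is the stretch from 101 to 3721 kb from the chromosome's left end in the WS190 (ce6) genome. It was read in consecutive windows of 1 kb, and a window is named by the kb at which it begins. After 27 windows marked as misannotated were left out, 3594 windows remained, of 99764 such windows in the whole genome, and all 3594 passed the filter on low values (a mean of at least 3 RPKM over the 25 libraries). RPKM is the number of aligned reads per kb of window and per unit of sequencing depth. The arm is set against the middle of the same chromosome (3722 to 10000 kb, 6253 windows) and, where it shows a difference, against its right part and the same positions on the other chromosomes.

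Chromatin immunoprecipitation sequencing (ChIP-seq) was done on whole, synchronized young adults grown at 19 °C, a stage at which the germline makes up a large part of the animal. The mutant strains were set-32(ok1457), the double mutant met-2(n4256) set-25(ok5021), the triple mutant (the double combined with set-32(ok1457)) and hrde-1(tm1200), and the wild type (WT) was N2. H3K9me3 was measured in each of the 5 strains on 3 feedings (OP50 bacteria, gfp RNAi bacteria as a control, and oma-1 RNAi bacteria, which carry double-stranded RNA against a germline gene), and RNA polymerase II phosphorylated at serine 2 of its tail repeat (Pol II) on the RNAi feedings alone. Each strain, feeding and antibody had 1 library, so the feedings serve as the samples of a strain (n = 3 for H3K9me3, n = 2 for Pol II), and the spread among them holds both the feeding and the preparation. Of these genes, the study's strain list places set-25 and hrde-1 on chromosome III itself and met-2 on chromosome V. The study also writes the double mutant as met-2 set-25 with no semicolon, the notation for genes on the same chromosome. The place of met-2 was not checked here.

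H3K9me3, histone H3 trimethylated at lysine 9, marks heterochromatin. On the worm's autosomes the outer parts carry most of it and the gene-dense middles little. The left end of chromosome III also holds the site at which homologs pair in meiosis. MET-2 makes mono- and dimethylated H3K9, SET-25 makes the trimethylated form, and SET-32 is a putative H3K9 methyltransferase. HRDE-1 is the germline nuclear Argonaute, which carries small RNAs to matching nascent transcripts and through them directs H3K9me3 and transcriptional silencing. The serine 2 form of Pol II is the elongating one.

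The libraries held between 2446000 and 7227000 aligned reads for H3K9me3 and between 3817000 and 6782000 for Pol II. H3K9me3 values below were scaled so that the median over H3K9me3(-) windows, those between the 5th and the 25th percentile of WT on OP50, was alike in every library, whereas Pol II values are RPKM as deposited. H3K9me3(+) windows are the highest 5 percent of the genome in WT on OP50. The WT libraries differed more from each other than those of any mutant: the median of the arm's H3K9me3(+) windows was 59.8 on OP50, 17.3 on gfp RNAi and 32 on oma-1 RNAi. Because the set was chosen on WT on OP50, a fall from that library is in part built in, and values on the other feedings are given beside it. Library names of WT, the double mutant and hrde-1 begin alike and those of set-32 and of met-2;set-25;set-32 begin otherwise, and whatever goes with that name cannot be told apart from the strain.

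In WT the left arm held more H3K9me3 than the rest of its chromosome, and Pol II was lower there. Of its 3594 windows, 326 (9.07%) were H3K9me3(+), against 40 (0.64%) in the middle, 58 (1.58%) in the right part and 5031 (5.04%) in the whole genome. The same positions on chromosome II held 667 (18.5%), on X 245 (6.82%), on IV 232 (6.43%), on V 144 (3.99%) and on I 122 (3.38%), so that the left arm of III came second to that of II among the 6 chromosomes. Mean H3K9me3 in the arm over that in the middle was 1.95, 1.24 and 1.54 in WT on OP50, gfp RNAi and oma-1 RNAi, and mean Pol II in the arm over the middle was 0.663 on gfp RNAi and 0.671 on oma-1 RNAi.

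The mark thinned toward the inner end of the arm. Its outer stretch (101 to 1308 kb) had 152 H3K9me3(+) windows of 1194 (12.7%), its central stretch (1308 to 2515 kb) 120 of 1196 (10.0%) and its inner stretch (2515 to 3722 kb) 54 of 1204 (4.49%). The H3K9me3(+) windows formed 92 runs, counting gaps of up to 1 kb as part of a run, of which 34 were single windows and 30 held at least 5 such windows, 218 in all. The longest was 20 kb, from 385 to 405 kb, followed by 505 to 524 kb, 1967 to 1982 kb and 2666 to 2677 kb. Runs of 10 or 9 kb stood at 155 to 165 kb, 1353 to 1363 kb, 3446 to 3456 kb, 174 to 183 kb and 2463 to 2472 kb, and the tenth by length was at 834 to 841 kb. Pol II in that last run was between 31.8 and 55.3 RPKM over the 10 libraries, above the other 9 runs (1.46 to 24.1 RPKM).

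Cut into 36 bins of 100 kb, the arm was uneven. The number of H3K9me3(+) windows per bin ran between 0 (in 4 bins) and 32 (101 to 201 kb), with a median of 7. The outermost bin, 101 to 201 kb, had 38.1, 12.1 and 20.7 RPKM in WT on OP50, gfp RNAi and oma-1 RNAi (mean 23.6), the highest of the arm, and was followed by 1301 to 1401 kb (mean 21.3) and 901 to 1001 kb (mean 18.3). The lowest bins were 1501 to 1601 kb (mean 6.90), 3601 to 3701 kb (mean 7.16) and 2301 to 2401 kb (mean 7.57). The highest bin was 2.09, 1.83 and 1.92 times the lowest in the triple mutant on OP50, gfp RNAi and oma-1 RNAi, against 4.24, 2.42 and 3.15 times in WT. The order of the bins differed between strains. The bin 101 to 201 kb was the highest in set-32 (mean 17.7) and hrde-1 (19.2), as in WT, and 1301 to 1401 kb in the double mutant (11.8), while in the triple mutant 2001 to 2101 kb (8.62), 101 to 201 kb (8.61) and 1301 to 1401 kb (8.56) stood level. In WT the bin 2001 to 2101 kb had a mean of 13.9, well below its highest. In hrde-1 the bin 1901 to 2001 kb was the third highest, at a mean of 17.9 RPKM, against 14.8 RPKM in WT.

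**Figure D1:**
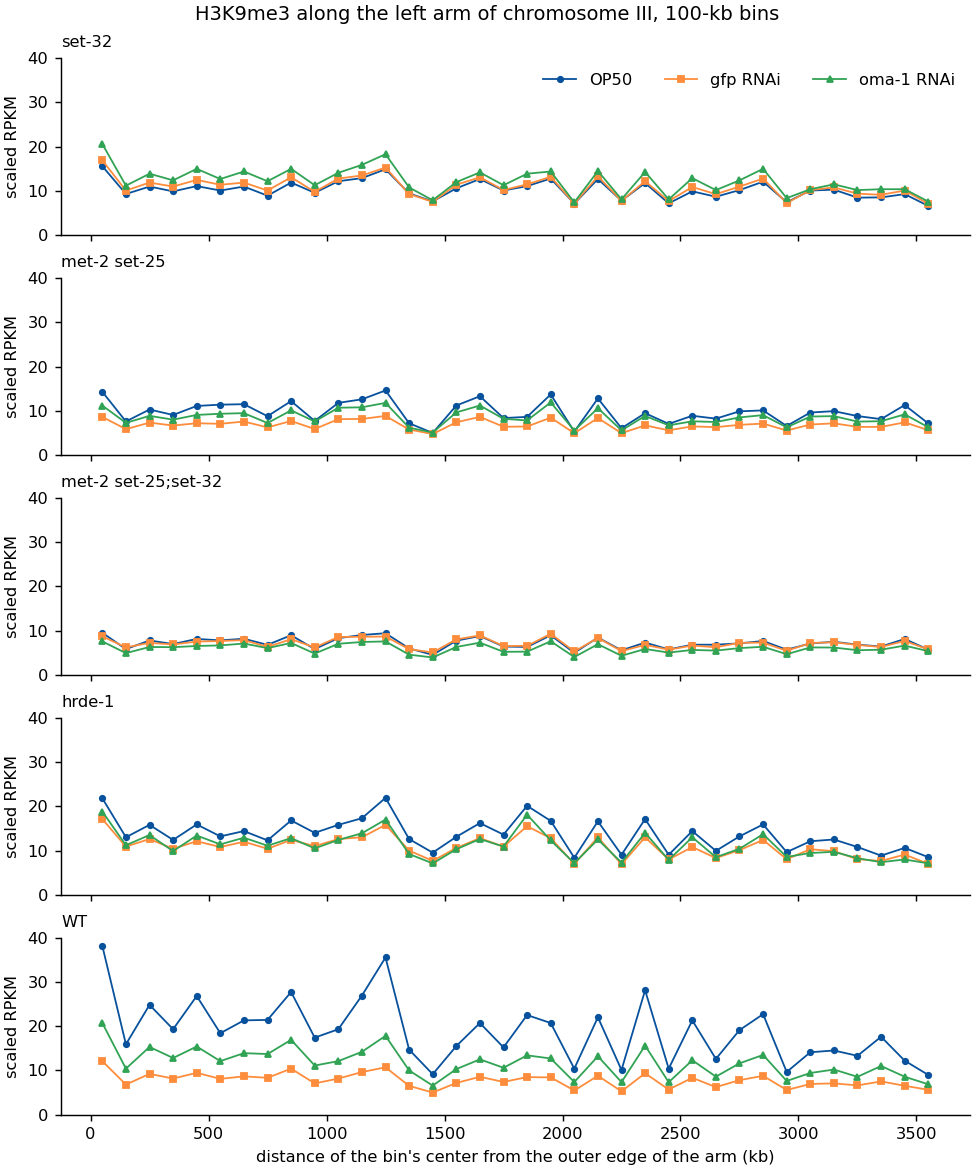
Mean H3K9me3 (RPKM, scaled to the H3K9me3(-) median) in each 100-kb bin against the distance of the bin from the outer edge of the arm in kb, 1 panel per strain and 1 line per feeding. The WT lines lie far apart, with OP50 at 38.1 RPKM and gfp RNAi at 12.1 RPKM in the outermost bin. In the triple mutant the highest bin is 2.09, 1.83 and 1.92 times the lowest on OP50, gfp RNAi and oma-1 RNAi.

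In the double and the triple mutant the arm held about as much H3K9me3 as the middle, whereas in set-32 and hrde-1, as in WT, it held more. The arm over the middle was 1.01, 1.05 and 0.946 in the triple mutant on OP50, gfp RNAi and oma-1 RNAi (mean 1.0 ± 0.052), 1.05, 1.02 and 1.07 in the double mutant (mean 1.05 ± 0.0251), 1.41, 1.35 and 1.52 in set-32 (mean 1.43 ± 0.082), and 1.61, 1.44 and 1.60 in hrde-1 (mean 1.55 ± 0.0977), against a mean of 1.58 ± 0.357 in WT (SD, n = 3 each). No library of the double or the triple mutant reached the lowest WT library, whereas the ranges of set-32 and hrde-1 overlapped that of WT. In a two-sided exact permutation test, p was 0.1 for the double and for the triple mutant, the smallest that 3 against 3 libraries allow, and 0.4 for each after adjustment over the 8 tests of both marks. It was 0.6 for set-32 (adjusted 0.96) and 1.0 for hrde-1 (adjusted 1.0).

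The double and the triple mutant were below WT on other arms too. The right part of III over the middle was 0.955 ± 0.0271 in the triple mutant and 0.961 ± 0.0178 in the double mutant, against 1.11 ± 0.0864 in WT. The same positions on chromosome II over the middle of III stood at 1.27 ± 0.0655 in the triple mutant and 1.42 ± 0.097 in the double mutant, against 2.24 ± 0.628 in WT (SD, n = 3 each, exact permutation p = 0.1 in each of these 4 comparisons). In set-32 (1.11 ± 0.0193) and hrde-1 (1.13 ± 0.0132) the right part over the middle was close to that of WT.

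Pol II in the arm over the middle differed little between strains. It was 0.830 and 0.757 in the triple mutant on gfp RNAi and oma-1 RNAi, 0.729 and 0.648 in the double mutant, 0.727 and 0.712 in set-32 and 0.711 and 0.564 in hrde-1, against 0.663 and 0.671 in WT. The triple mutant and set-32 lay above both WT libraries, and the double mutant and hrde-1 lay on both sides of them. With 2 against 2 libraries an exact permutation test cannot give less than 0.333, the value it gave for the triple mutant and for set-32.

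**Figure D2:**
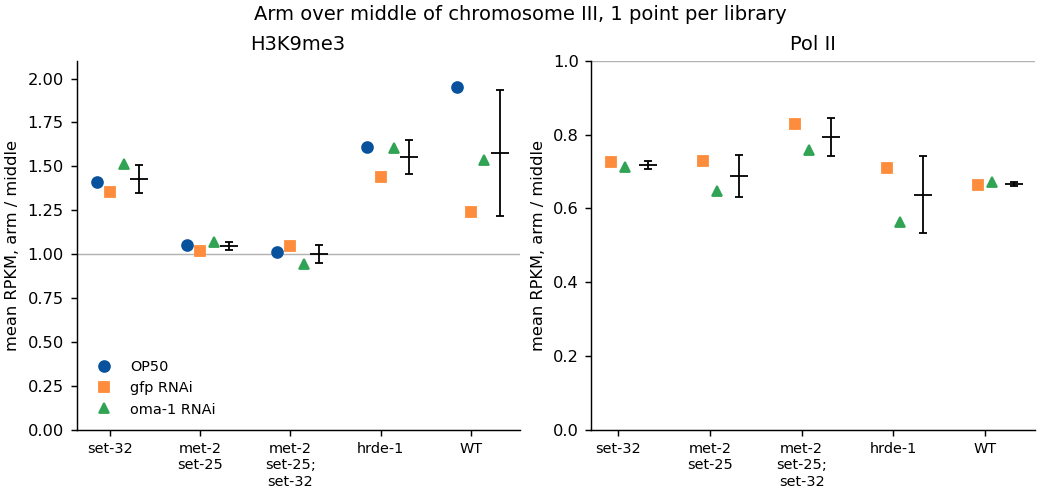
Mean of the arm over mean of the middle of chromosome III in every library (a ratio with no unit), H3K9me3 on the left and Pol II on the right, by strain with WT last; points are libraries by feeding, the bar the mean and the error bar the SD. For H3K9me3 the triple and the double mutant sit between 0.946 and 1.07, below all WT libraries (1.24 to 1.95).

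Within the H3K9me3(+) windows the level was lowest in the triple mutant on OP50 and oma-1 RNAi, and on gfp RNAi the triple and the double mutant stood level. Their median was 11.2, 10.2 and 8.99 RPKM in the triple mutant on OP50, gfp RNAi and oma-1 RNAi and 16.5, 10.2 and 14.0 RPKM in the double mutant, against 59.8, 17.3 and 32 RPKM in WT. In set-32 it was 20.4, 22.7 and 29.4 RPKM and in hrde-1 33.2, 24.4 and 29.1 RPKM. The double and the triple mutant were thus below WT on every feeding. On this scaling set-32 and hrde-1 were below WT on OP50 and oma-1 RNAi and above it on gfp RNAi. The median of these windows over that of the middle needs no scaling between libraries. On gfp RNAi it was 2.91 in set-32 and 3.38 in hrde-1, against 2.93 in WT, so the rise of set-32 there was not seen. On oma-1 RNAi it was 3.82 in set-32 and 4.47 in hrde-1, against 4.47 in WT. Window by window, 326, 319 and 326 of the 326 were lower in the triple mutant than in WT on the same feeding, 326, 321 and 325 in the double mutant, 326, 21 and 214 in set-32 and 324, 20 and 198 in hrde-1.

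The difference on the RNAi feedings changed little when WT on gfp RNAi chose the H3K9me3(+) windows. The triple mutant's median was 0.591 of WT on gfp RNAi and 0.281 on oma-1 RNAi, and the double mutant's 0.586 and 0.437. With the set taken from WT on gfp RNAi instead (306 windows, 257 of them shared), these ratios were 0.596 and 0.284 in the triple mutant and 0.583 and 0.447 in the double mutant. Most windows are in both sets, and a fall from WT on gfp RNAi is in part built into the second set. The near-equal ratios are therefore no independent check. In the triple mutant the median of the arm's H3K9me3(+) windows was 2.72, 2.30 and 2.38 times that of its 1010 H3K9me3(-) windows on OP50, gfp RNAi and oma-1 RNAi. The same ratio was 4.23, 2.41 and 3.33 in the double mutant, 4.04, 4.81 and 6.0 in set-32, 6.78, 5.29 and 6.12 in hrde-1 and 12.2, 4.03 and 7.30 in WT. In this ratio each triple-mutant library was below the lowest WT value, and the other strains overlapped WT. Both classes were chosen on WT on OP50 and no input was subtracted, so the ratio cannot tell H3K9me3 from background that differs between windows. The study describes the triple mutant as without any detectable H3K9me3 signal.

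Each mutant was then compared with WT window by window, with limma on log2(RPKM + 1) fitted over all 99742 tested windows of the genome with strain and feeding as terms. A window was called where the Benjamini-Hochberg adjusted p was under 0.05 and the change at least 2-fold on that scale, which understates the change of windows with few reads. All comparisons share the WT libraries, so that their counts are not independent.

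In the triple mutant H3K9me3 fell in 720 of the arm's 3594 windows (20.0%), against 9.2% of all windows tested, and rose in 0, against 0.013%, with 25 higher at an unadjusted p under 0.05. In the double mutant it fell in 449 windows (12.5%), against 6.08% of all windows, and rose in 2, against 0.118%. The median log2 difference over the arm was -0.40 in the triple and -0.23 in the double mutant, against -0.19 and 0.03 over all windows. A larger share of the arm than of the genome is H3K9me3(+), and it was in these windows that the calls were densest: 320 of the 326 fell in the triple mutant and 258 in the double mutant, against 399 and 187 of the 2258 windows between the classes and 1 and 4 of the 1010 H3K9me3(-) windows. The classes were chosen on WT on OP50, which is also in the fit, so this split between them is in part built in. On depth normalization alone the arm's median log2 difference was 0.08 in the triple mutant and -0.03 in the double mutant, against 0.29 and 0.23 over all windows, so the direction of the arm's median in the triple mutant flips with the scaling while its place below all windows does not. Without the WT library on OP50, 402 windows were called lower in the triple and 162 in the double mutant, and without the WT library on gfp RNAi 1052 and 752.

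The falls followed the outward rise of the mark. In the triple mutant 351 of 1194 windows of the outer stretch fell (29.4%), 252 of 1196 in the central stretch (21.1%) and 117 of 1204 in the inner stretch (9.72%). In the double mutant these counts were 216 (18.1%), 154 (12.9%) and 79 (6.56%). The 6 H3K9me3(+) windows not called lower in the triple mutant began at 1257, 1258, 1266, 2218, 2369 and 2455 kb, and all 6 had log2 differences under 0, between -0.78 and -0.98.

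In set-32 and hrde-1 few windows of the arm moved. H3K9me3 fell in 9 windows in set-32, against 0.47% of all windows, and rose in 0, against 0.011%. At an unadjusted p under 0.05, 117 windows were lower and 154 higher in set-32, and without the WT library on gfp RNAi 78 were called lower. In hrde-1 it fell in 15 windows (0.417%), against 0.651% of all windows, and rose in 13 (0.362%), against 0.0742%. Without the WT library on gfp RNAi 50 windows were called lower in hrde-1. The median log2 difference over the arm was 0.03 in each, against 0.06 over all windows in set-32 and 0.04 in hrde-1. The share that fell in these strains was no larger than in the genome, and 9 of the 13 rises in hrde-1 lay in a single stretch described further on.

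The same order was seen in the 100-kb bins, which were tested with limma over the 1003 such bins of the genome and called at an adjusted p under 0.05. H3K9me3 was lower in 33 of the arm's 36 bins in the triple mutant, against 30.1% of all bins, and in 17 in the double mutant, against 12.6%. Without the WT library on OP50 these counts were 19 and 0. It was lower in 0 bins in set-32, against 0.0997%, and in 0 in hrde-1, against 0.299%. The outermost bin had 9.53, 8.72 and 7.58 RPKM in the triple mutant on OP50, gfp RNAi and oma-1 RNAi, against 38.1, 12.1 and 20.7 RPKM in WT (log2 difference -1.22, SE 0.288, limma adjusted p 1.96e-04), the largest fall of any bin. It was followed by 2401 to 2501 kb (-1.16) and by 1301 to 1401 kb and 1901 to 2001 kb (-1.07 each). The bins not called in the triple mutant were 1601 to 1701 kb (-0.46, limma adjusted p 0.0574), 2001 to 2101 kb (-0.55, 0.0601) and 3501 to 3601 kb (-0.22, 0.368). Over all 36 bins the log2 difference ran between -1.22 and -0.22 in the triple mutant, between -0.88 and 0.05 in the double mutant, between -0.36 and 0.17 in set-32 and between -0.47 and 0.35 in hrde-1.

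**Figure D3:**
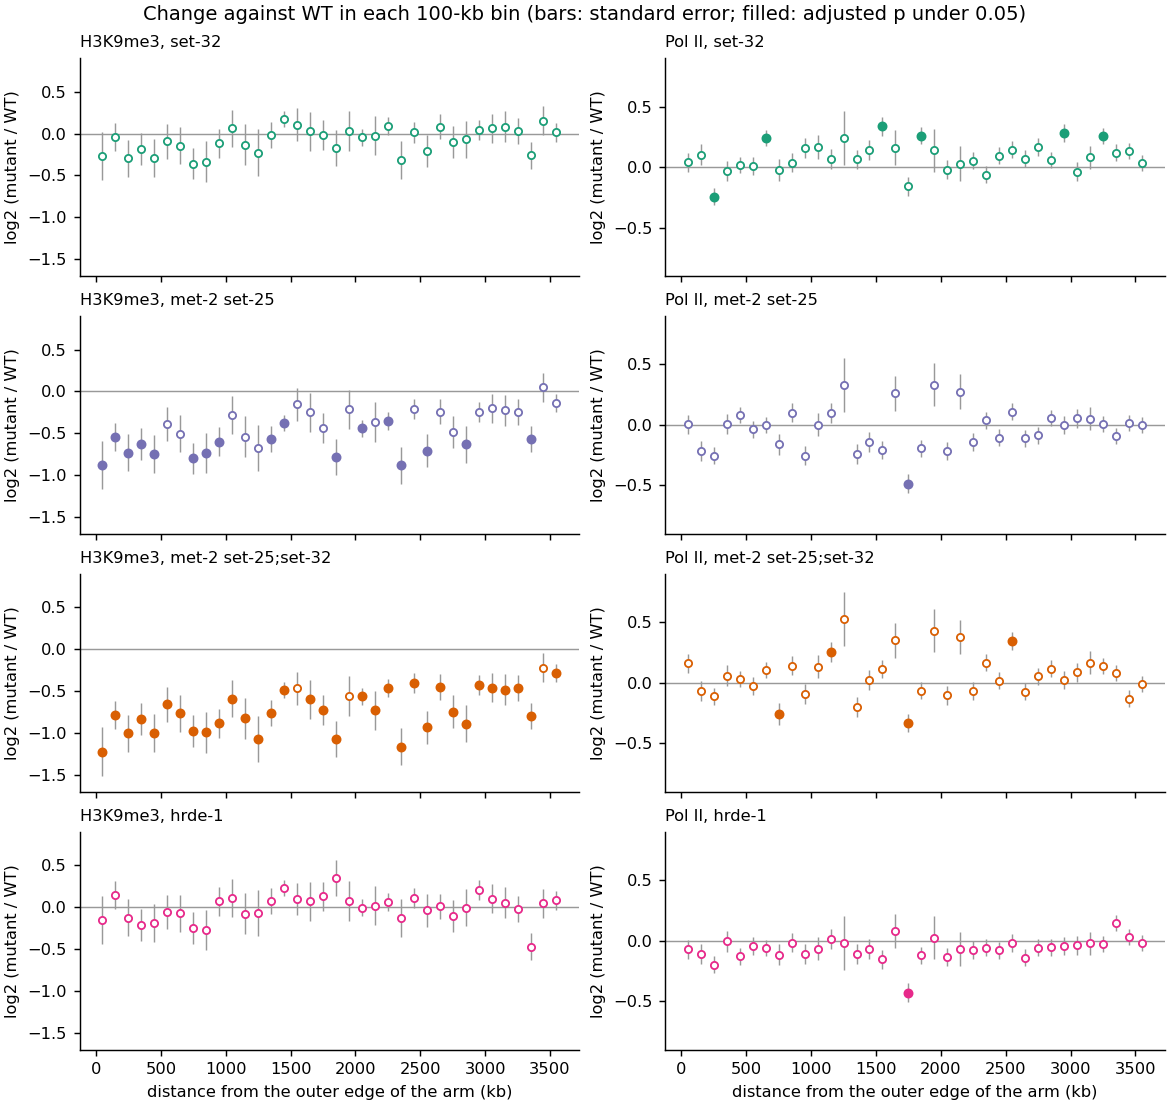
Log2 difference from WT in each 100-kb bin against distance from the outer edge of the arm in kb, H3K9me3 on the left and Pol II on the right, 1 row of panels per mutant. Error bars are the standard errors of the limma fit and filled points have an adjusted p under 0.05; the triple mutant has 33 filled points of 36 for H3K9me3, and the bin 1801 to 1901 kb is low in Pol II in 3 of the 4 mutants.

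Neighbouring called windows were joined into regions where at least 3 windows of the same direction lay no more than 1 kb apart and every feeding had the same direction. In the triple mutant 75 regions with 610 called windows fell, in the double mutant 54 regions with 361 windows, in hrde-1 2 regions with 12 windows and in set-32 1 region with 3 windows. H3K9me3 regions that rose numbered 1 in hrde-1 and 0 in the other mutants. Within a library, the height of a region can be read relative to the arm's H3K9me3(+) median. The longest run, at 385 to 405 kb, averaged 0.983 ± 0.0132 of that median in the triple mutant, 0.972 ± 0.0712 in the double mutant, 0.937 ± 0.0303 in set-32, 0.949 ± 0.0302 in hrde-1 and 1.01 ± 0.0207 in WT (SD, n = 3 each). Others of the 10 long runs moved relative to the median. The run at 834 to 841 kb stood at 0.558 ± 0.0309 in hrde-1, against 0.845 ± 0.0771 in WT, and the run at 1967 to 1982 kb at 1.35 ± 0.0211 in hrde-1, against 1.14 ± 0.0253 in WT. The run at 155 to 165 kb was above WT (1.22 ± 0.0183) in every mutant. It stood at 1.45 ± 0.0191 in the double mutant, 1.36 ± 0.0215 in the triple mutant, 1.34 ± 0.0473 in hrde-1 and 1.32 ± 0.0302 in set-32. In these comparisons of the 3 runs the libraries of mutant and WT did not overlap.

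The region with the largest fall in the double mutant, and the second largest in the triple mutant, was 3446 to 3457 kb, near the inner end of the arm. The main fall of hrde-1 and the only falling region of set-32 were there too, and 4 of its windows are GRH windows, which the authors' earlier work marked as having H3K9me3 that depends on germline nuclear RNAi (the arm has 5 in all). From 3448 to 3457 kb H3K9me3 was 8.42, 7.38 and 7.40 RPKM in hrde-1 on OP50, gfp RNAi and oma-1 RNAi, against 69.0, 16.2 and 34.6 RPKM in WT. All 9 windows there were called lower in hrde-1, with a mean log2 difference of -2.02 and single windows between -1.05 and -3.10. Every hrde-1 library lay below every WT library, and the largest adjusted p of the 9 windows was 0.00814 (limma).

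At the same place set-32 had 12.2, 14.9 and 20.7 RPKM on the 3 feedings in the same order, and 4 of the 9 windows were called lower. The region of 3 windows called in set-32, 3448 to 3451 kb (mean log2 difference -1.37), lost its call with OP50 left out (-0.805), with WT and set-32 fitted alone and without the OP50 library of WT or of set-32. The double mutant had 8.30, 6.15 and 7.89 RPKM and the triple mutant 6.43, 5.97 and 5.74 RPKM, with all 9 windows called lower in each. Relative to the arm's H3K9me3(+) median of the same library, the region stood at 0.27 ± 0.0283 in hrde-1, 0.557 ± 0.0522 in the double mutant, 0.60 ± 0.0346 in the triple mutant and 0.651 ± 0.0528 in set-32, against 1.06 ± 0.112 in WT (SD, n = 3 each). The region was thus the lowest relative to the arm in hrde-1, and every strain was below WT in this ratio.

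Pol II over 3448 to 3457 kb was 20.0 and 27.7 RPKM in hrde-1 on gfp RNAi and oma-1 RNAi, against 12.6 and 13.4 RPKM in WT. It was 13.6 and 14.8 RPKM in the triple mutant, 10.7 and 12.6 RPKM in the double mutant and 13.5 and 12.0 RPKM in set-32. The windows at 3451 and 3453 kb were called both lower in H3K9me3 and higher in Pol II in hrde-1, the only windows of the arm called in both marks in that mutant. The Pol II call at 3451 kb (log2 difference 1.09, limma adjusted p 0.04) was lost under scaling to the median window, without the block and with WT and hrde-1 fitted alone. At 3453 kb H3K9me3 was 2.82, 3.40 and 2.82 RPKM in hrde-1, against 67.2, 15.9 and 34.2 RPKM in WT (log2 difference -3.10, limma adjusted p 2.97e-29), and Pol II was 23.6 and 54.1 RPKM in hrde-1, against 7.84 and 6.22 RPKM in WT (log2 difference 2.20, limma adjusted p 2.82e-05). In the triple mutant the same window had as little H3K9me3 left as 6.0, 6.34 and 6.02 RPKM, and Pol II there was 13.1 and 11.7 RPKM.

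Just outside it, from 3440 to 3446 kb, lay the only region of the arm in which Pol II rose in hrde-1. Pol II was 14.9 and 12.1 RPKM in hrde-1, 7.47 and 5.52 RPKM in the triple mutant, 7.05 and 4.82 RPKM in the double mutant and 4.22 and 3.30 RPKM in set-32, against 4.09 and 3.95 RPKM in WT (mean log2 difference in hrde-1 1.58 over 5 called windows). Both hrde-1 libraries were the highest of the 10. H3K9me3 over this stretch was 20.2, 18.8 and 15.5 RPKM in hrde-1, against 36.5, 14.7 and 23.4 RPKM in WT, and overlapped. The call was lost when the WT library on gfp RNAi or the hrde-1 library on oma-1 RNAi was left out.

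**Figure D4:**
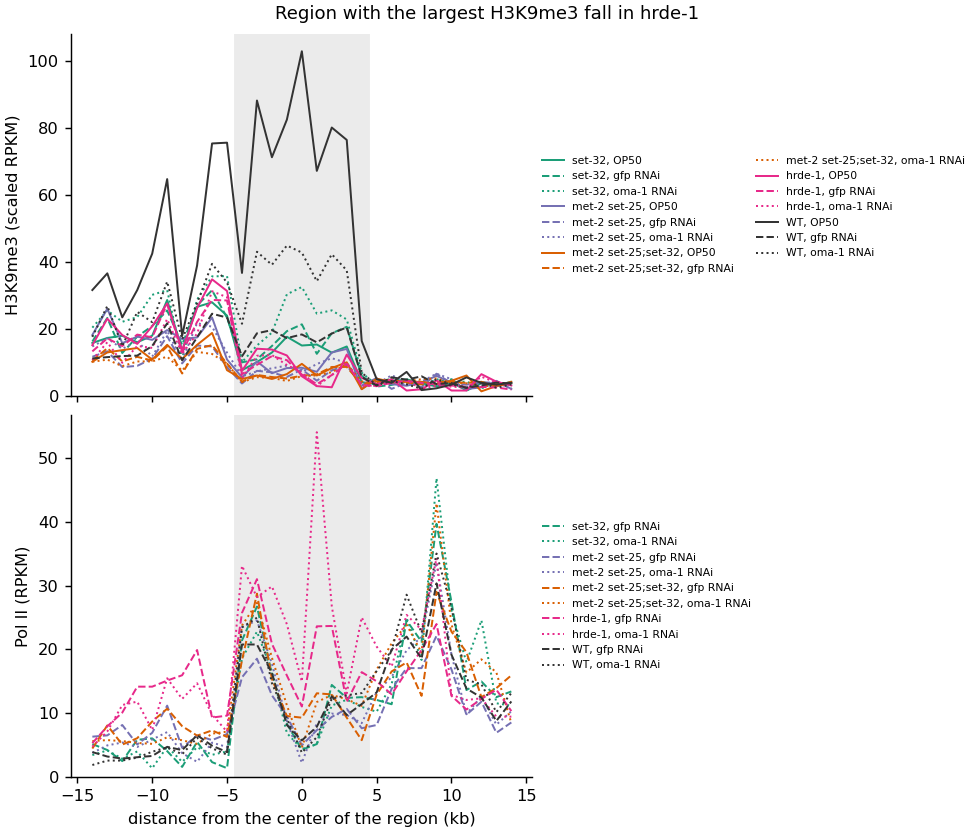
H3K9me3 (RPKM, scaled) and Pol II (RPKM) in 1-kb windows from 10 kb outside the region at 3448 to 3457 kb to 10 kb inside it, with distance from the centre of the region in kb, each line 1 library with the strain as its colour and the feeding as its style. Averaged over the region, H3K9me3 in hrde-1 is 7.38 to 8.42 RPKM, against 16.2 to 69.0 RPKM in WT. Pol II averaged over the region is higher in hrde-1 than in WT on each RNAi feeding.

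The remaining GRH window, at 2605 kb, had little H3K9me3 in WT. It was 5.08, 4.41 and 2.97 RPKM in hrde-1 and 6.70, 2.82 and 3.15 RPKM in set-32 on OP50, gfp RNAi and oma-1 RNAi, against 15.2, 6.76 and 10.6 RPKM in WT. The arm also has 2 GRTS windows, marked by the same authors for transcriptional silencing that depends on germline nuclear RNAi. At 3443 kb Pol II was 15.1 and 15.5 RPKM in hrde-1, against 4.69 and 4.61 RPKM in WT (log2 difference 1.53, limma adjusted p 0.00399). At 2803 kb it was 14.2 and 8.83 RPKM in hrde-1, against 4.32 and 2.83 RPKM in WT (log2 difference 1.44, limma adjusted p 0.0182). These marks come from the study's authors and rest on their earlier hrde-1 data, so that their direction in hrde-1 is not independent evidence.

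The other 2 regions called in hrde-1 moved in opposite directions. From 950 to 953 kb H3K9me3 was 12.2, 9.14 and 9.99 RPKM in hrde-1 and 7.90, 10.9 and 12.4 RPKM in set-32, against 44.4, 13.8 and 23.4 RPKM in WT, and 3 windows fell in hrde-1 (mean log2 difference -1.15). Relative to the arm's H3K9me3(+) median the region stood at 0.362 ± 0.0164 in hrde-1 and 0.43 ± 0.0473 in set-32, against 0.756 ± 0.0342 in WT (SD, n = 3 each), while the double mutant was at 0.565 ± 0.00565 and the triple mutant at 0.662 ± 0.0948. The fall in hrde-1 lost its call on depth normalization alone, with OP50 left out, with WT and hrde-1 fitted alone and when any hrde-1 library or the WT library on OP50 or oma-1 RNAi was left out. Pol II there was 5.03 and 3.93 RPKM in hrde-1, against 4.28 and 3.38 RPKM in WT.

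The single stretch in which H3K9me3 rose in hrde-1 was 1914 to 1922 kb. H3K9me3 was 41.6, 31.8 and 40.4 RPKM in hrde-1 on OP50, gfp RNAi and oma-1 RNAi, against 28.8, 9.10 and 17.6 RPKM in WT, and every hrde-1 library was above every WT library. Its 7 called windows had a mean log2 difference of 1.16. The stretch stood at 1.32 ± 0.0687 of the arm's H3K9me3(+) median in hrde-1, against 0.519 ± 0.0356 in WT (SD, n = 3 each), and it was at 0.533 ± 0.0412 in set-32. The windows at 1925 and 1926 kb rose too (log2 differences 1.43 and 1.39), and from 1916 to 1926 kb the same ratio was 1.60 ± 0.13 in hrde-1, against 0.692 ± 0.055 in WT. Here the double mutant had 6.18, 5.42 and 6.24 RPKM and the triple mutant 4.33, 4.49 and 3.88 RPKM over 1914 to 1922 kb, and 1914 to 1926 kb was among the 5 largest falls of the double mutant. Pol II over 1914 to 1922 kb was 10.4 and 9.91 RPKM in hrde-1, against 11.9 and 13.9 RPKM in WT, and no window was called. The rise was lost when WT and hrde-1 were fitted alone or when the hrde-1 library on OP50 or the WT library on gfp RNAi was left out, and without the WT library the mean log2 difference was 0.81.

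The largest fall of the triple mutant, and the second largest of the double mutant, was at 1085 to 1093 kb. From 1085 to 1092 kb H3K9me3 was 4.43, 5.47 and 4.19 RPKM in the triple mutant and 7.92, 5.63 and 9.23 RPKM in the double mutant, against 54.1, 15.5 and 31.7 RPKM in WT, while it was 17.4, 17.5 and 23.5 RPKM in set-32 and 30.6, 22.2 and 22.7 RPKM in hrde-1. The mean log2 difference of the called windows was -2.24 in the triple mutant and -1.87 in the double mutant. From 1085 to 1092 kb 4 of the 7 windows are H3K9me3(+). Averaged over all 7, the region carried much Pol II. It was 31.4 and 36.4 RPKM in the triple mutant and 25.1 and 32.7 RPKM in the double mutant, against 31.2 and 46.5 RPKM in WT, and the WT range held all but the 25.1 of these values. Other large falls of the triple mutant were 1916 to 1926 kb (-2.01), 2117 to 2123 kb (-1.90) and 2802 to 2805 kb (-1.73), and of the double mutant 3620 to 3624 kb (-1.67) and 649 to 654 kb (-1.60). At 3620 to 3624 kb H3K9me3 was 6.61, 6.03 and 7.05 RPKM in the double mutant and 34.3, 23.8 and 30.0 RPKM in hrde-1, against 42.7, 11.3 and 24.1 RPKM in WT.

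Pol II was called in few windows of the arm in any mutant. In the triple mutant it was higher in 58 windows (1.61%), against 1.85% of all windows, and lower in 13, against 0.475%. Under scaling of each library to its median window, 15 were higher and 130 lower in the triple mutant, so that the balance of directions flips, and without its own library on oma-1 RNAi or on gfp RNAi 8 or 11 windows were called in all. In set-32 it was higher in 10 and lower in 23, against 0.704% and 1.32%, in the double mutant higher in 4 and lower in 12, against 0.299% and 0.136%, and in hrde-1 higher in 8 and lower in 13, against 0.464% and 0.135%. The share of higher windows was below that of the genome in every mutant. In the double mutant and in hrde-1 the lower windows, 12 and 13 of 3594 (0.334% and 0.362%), were a larger share than in the genome, and 12 in each came from 1 region, described below.

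The windows called higher in Pol II in the triple mutant were mostly ones with little Pol II in WT, which the choice of windows above WT in part fixes. The 58 windows had a median of 4.87 RPKM in WT, with a range between 1.16 and 18.2, against a median of 6.11 RPKM over all windows of the arm. Their median log2 difference was 1.29 and the largest 2.09. Of the 58, 11 were H3K9me3(+) and 24 were also called lower in H3K9me3, against 326 (9.07%) and 720 (20.0%) of the arm's 3594 windows. Over all 326 H3K9me3(+) windows median Pol II was 6.05 and 5.16 RPKM in the triple mutant on gfp RNAi and oma-1 RNAi and 6.49 and 4.20 RPKM in the double mutant, against 4.48 and 3.46 RPKM in WT. It was 4.47 and 4.24 RPKM in set-32 and 5.51 and 2.88 RPKM in hrde-1. The double and the triple mutant were above WT on each feeding, but the double mutant on oma-1 RNAi was below WT on gfp RNAi. In the triple mutant 11 of these 326 windows (3.37%) were called higher in Pol II, against 1.61% of the arm, and their median log2 difference was 0.43, against -0.03 in the H3K9me3(-) windows.

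The largest such rises were at 122 to 128 kb (mean log2 difference 1.40), 969 to 972 kb (1.34), 732 to 739 kb (1.26), 2664 to 2668 kb (1.26) and 308 to 311 kb (1.18). At 969 to 972 kb Pol II was 8.43 and 6.09 RPKM in the triple mutant and 9.26 and 6.78 RPKM in the double mutant, against 2.62 and 1.92 RPKM in WT, and H3K9me3 was 10.8, 9.88 and 8.30 RPKM in the triple mutant, against 57.2, 16.0 and 30.2 RPKM in WT. At 308 to 311 kb Pol II was 41.7 and 37.4 RPKM in the triple mutant, against 17.2 and 16.7 RPKM in WT, with H3K9me3 of 2.84, 3.41 and 3.35 RPKM in the triple mutant, against 4.96, 3.72 and 3.05 RPKM in WT. The arm's Pol II rises thus lay both inside and outside H3K9me3-marked chromatin. In the double mutant the windows higher in Pol II and lower in H3K9me3 were those at 970, 1721 and 1971 kb, where Pol II was 7.91 and 7.71, 8.52 and 7.47, and 7.10 and 7.24 RPKM in the double mutant, against 1.43 and 2.07, 2.44 and 1.61, and 2.65 and 1.38 RPKM in WT. All of these Pol II calls were lost when either library of the double mutant was left out. Those at 1721 and 1971 kb were also lost under scaling to the median window (log2 differences 1.31 and 1.21), with a pseudocount of 0.5 and without the block. The H3K9me3 call at 1721 kb was lost on depth normalization alone and with OP50 left out. Under scaling to each library's median window, all 5 of the triple mutant's regions lost their call, with mean log2 differences between 0.72 and 0.99.

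The largest Pol II change of the arm was a fall shared by all mutants, at 1819 to 1831 kb. Pol II there was 11 and 10.5 RPKM in the triple mutant, 9.42 and 11.1 RPKM in the double mutant, 14.4 and 14.6 RPKM in set-32 and 12.1 and 11.5 RPKM in hrde-1, against 33.2 and 41.7 RPKM in WT. Every mutant library lay below both WT libraries. All 12 windows were called lower in the double mutant and in hrde-1, 11 of them in the triple mutant and 7 of them in set-32. Over all 12 the mean log2 difference was -1.85 in the triple mutant, -1.94 in the double mutant, -1.58 in set-32 and -1.87 in hrde-1. The fall was deepest over 1819 to 1825 kb, where the 8 mutant libraries had between 4.36 and 5.80 RPKM, against 27.6 and 35.0 RPKM in WT. All 4 comparisons rest on the same 2 WT libraries, so the fall in the mutants and a peak in WT alone cannot be told apart. H3K9me3 over the 12 windows was 5.10, 5.35 and 3.96 RPKM in the triple mutant, 8.24, 5.17 and 6.86 RPKM in the double mutant, 8.04, 7.70 and 7.49 RPKM in set-32 and 10.3, 9.47 and 8.48 RPKM in hrde-1, against 10.6, 9.85 and 12.9 RPKM in WT, and none of the windows is H3K9me3(+).

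**Figure D5:**
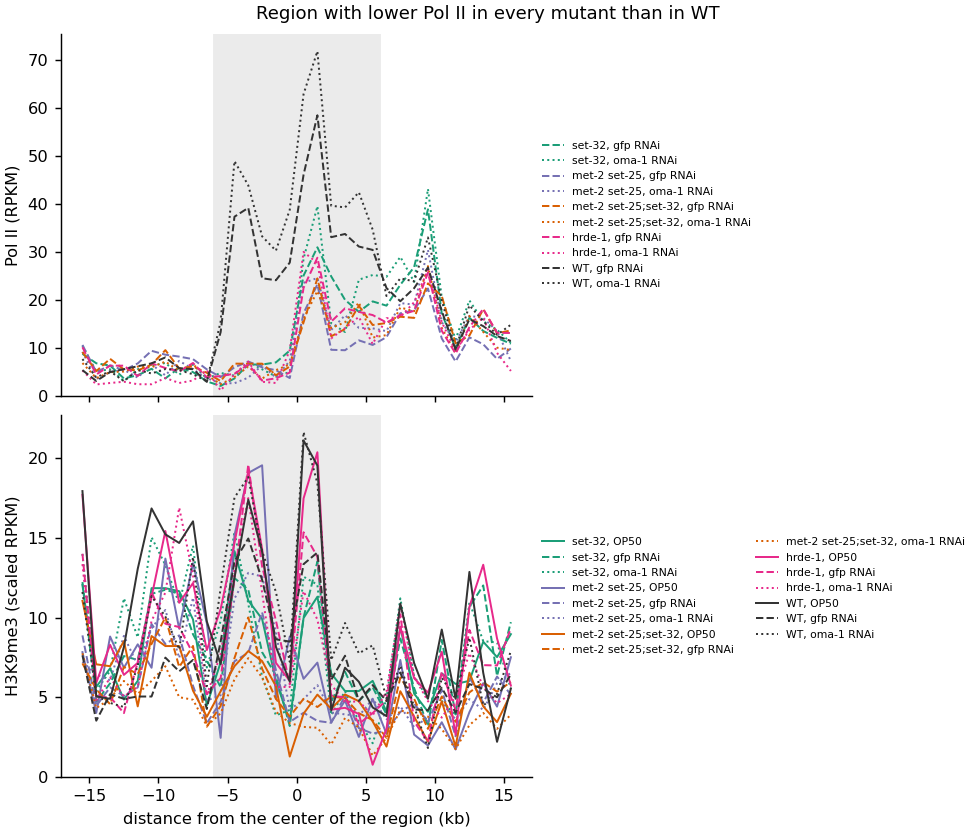
Pol II (RPKM) and H3K9me3 (RPKM, scaled) in 1-kb windows around 1819 to 1831 kb against distance from the centre of the region in kb, each line 1 library with the strain as its colour and the feeding as its style. WT stands alone in Pol II, at 33.2 and 41.7 RPKM over the region, against 9.42 to 14.6 RPKM in the mutants.

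In set-32, 2 other regions were called lower in Pol II, each of which lost its call when the WT library on gfp RNAi or either set-32 library was left out. From 2418 to 2422 kb Pol II was 7.56 and 7.70 RPKM in set-32, against 23.4 and 15.5 RPKM in WT (mean log2 difference -1.32), and the other mutants had between 14.8 and 30.0 RPKM. From 352 to 355 kb it was 9.34 and 10.8 RPKM in set-32, against 27.6 and 19.1 RPKM in WT (-1.13), and all mutant libraries lay below WT. The triple mutant, which also lacks set-32, had 23.0 and 25.2 RPKM at 2418 to 2422 kb.

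In bins of 100 kb Pol II differed little. It was lower in 2 and higher in 2 of the 36 bins in the triple mutant, against 9.37% and 10.6% of all bins, lower in 1 and higher in 5 in set-32, against 8.47% and 4.49%, lower in 1 and higher in 0 in the double mutant, against 0.499% and 0.598%, and lower in 1 and higher in 0 in hrde-1, against 0.499% and 0.897%. The bin called lower in the double mutant (log2 difference -0.49, limma adjusted p 3.93e-04), hrde-1 (-0.43, limma adjusted p 6.2e-04) and the triple mutant (-0.33) was 1801 to 1901 kb, which holds the region above. The 5 windows with the highest Pol II in WT stayed high in the mutants: at 1419 kb Pol II was 110 and 184 RPKM in the triple mutant and 183 and 235 RPKM in hrde-1, against 204 and 223 RPKM in WT. The fifth of them, at 835 kb, is H3K9me3(+), with 6.32, 7.45 and 7.45 RPKM of H3K9me3 in the triple mutant, against 50.6, 10.2 and 23.2 RPKM in WT, and Pol II of 124 and 133 RPKM in the triple mutant, against 171 and 129 RPKM in WT.

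Along the arm the marks ran opposite to each other. Over the 36 bins Spearman's rho between H3K9me3 and Pol II was -0.784 and -0.754 in the triple mutant on gfp RNAi and oma-1 RNAi, -0.763 and -0.788 in the double mutant, -0.696 and -0.603 in set-32 and -0.547 and -0.513 in hrde-1, against -0.528 and -0.452 in WT. The bins lie on 1 chromosome and share their libraries, so these are descriptions and not tests. The inverse order was present in every strain, including the double and the triple mutant, whose arm over middle was near 1.

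Few windows of the arm were called between feedings across strains. For H3K9me3, oma-1 RNAi against gfp RNAi gave 0 calls, against 0.001% of all windows, with 16 lower and 88 higher at an unadjusted p under 0.05 (limma). OP50 against gfp RNAi gave 1, against 0.00201%, a rise at 3018 kb (log2 difference 1.12, limma adjusted p 0.00102), while at an unadjusted p under 0.05 the fit had 34 lower and 1046 higher of the 3594 windows, with a median log2 difference of 0.29 over the arm and 0.27 over all windows. On depth normalization alone these medians were -0.04 and -0.06, so this direction turned with the scaling. For Pol II, oma-1 RNAi against gfp RNAi gave 5 falls, against 0.312% of all windows in either direction, at 155, 164, 604, 1321 and 3583 kb, with log2 differences between -1.08 and -1.02, and 655 lower and 190 higher at an unadjusted p under 0.05. Under scaling of each library to its median window the direction turned, with 0 falls and 17 rises, and the arm's median log2 difference was 0.17 in place of -0.15. With a single library left out this count ran between 0 (any library of the double mutant, the triple mutant or hrde-1) and 30 (either library of set-32). Strain and preparation are not separated within a feeding, since each strain had 1 library per feeding.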

How the data were processed

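The authors aligned the ChIP-seq reads to the C. elegans genome (WS190) with Bowtie 0.12.7, kept perfect alignments, gave a read with several loci an equal part at each, and deposited RPKM per 1-kb window, with no input correction. The values are not whole reads, so no count test was run. Columns that mark windows by dependence on a methyltransferase or by H3K9me3 tier hold the authors' own comparisons and were not used, and the 5 input samples were not analysed here. No sequence is shown and no gene named, because no WS190 genome or annotation was at hand. Window numbers of the table were taken as the kb at which a window begins.

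H3K9me3 was scaled to the median over H3K9me3(-) windows, as the study did to compare strains. Windows with a mean of at least 3 RPKM were fitted on log2(RPKM + 1) with limma 3.58.1 in R 4.3.3 (moderated test with trend, strain and feeding as terms, all libraries of a mark), and p-values were adjusted by Benjamini-Hochberg over the 99742 windows. For H3K9me3 the prior degrees of freedom were infinite, so that windows of like level share 1 spread. Bins of 100 kb with at least 50 tested windows were fitted likewise on their mean. Summaries were made with Python 3.11.15, numpy 2.4.6, pandas 2.3.3 and scipy 1.17.1. The scripts were tested on simulated data.

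Feeding was the block in every model, because it is what the labels give to tell the libraries of a strain apart. The labels do not say that libraries came from separate cultures, so p-values measure only the spread between these libraries. The depth given in the report limits the precision of single windows. The middle of the chromosome ended at 10000 kb and its right part left out the last 100 kb. Regions were named by a rule: the 10 longest H3K9me3(+) runs, the 3 highest and 3 lowest bins, the 5 largest falls and the 5 largest rises per mutant and mark, all GRH and GRTS windows, the 5 windows highest in WT Pol II, up to 5 windows per mutant called in both marks, and windows near 0 in a single strain, of which there were 0. The arm, the lists and the tests were chosen with earlier results of these data known. Alternatives were another scaling, another pseudocount, no filter, no block, 2 strains alone in the fit, OP50 left out and each library left out in turn.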

Additional observations from a re-analysis of the deposited data

Results flagged for a closer look

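In set-32 and hrde-1 the difference from WT took opposite directions on different feedings. Each value below compares 1 mutant library with the WT library of the same feeding, and the difference between feedings was not tested. For H3K9me3, the ratio of the arm to the middle over that of WT was 0.725 on OP50, 1.09 on gfp RNAi and 0.986 on oma-1 RNAi in set-32, and 0.827, 1.16 and 1.04 in hrde-1. The scaled median of the arm's H3K9me3(+) windows over that of WT was 0.341, 1.31 and 0.919 in set-32 and 0.555, 1.41 and 0.909 in hrde-1 on the same feedings. Taken over the middle's median, with no scaling, these windows stood at 2.91 in set-32 and 3.38 in hrde-1 on gfp RNAi, against 2.93 in WT. The direction in set-32 on gfp RNAi thus turned with the scaling. The WT medians themselves were 59.8, 17.3 and 32 RPKM, and their part in these directions was not tested.

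For Pol II, the H3K9me3(+) windows had a median of 0.999 times WT on gfp RNAi and 1.23 on oma-1 RNAi in set-32, and 1.23 and 0.832 in hrde-1. The ratio of the arm to the middle over that of WT was 1.1 on gfp RNAi and 0.966 on oma-1 RNAi in the double mutant, and 1.07 and 0.84 in hrde-1.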

How the results depend on the processing

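Counts of called H3K9me3 windows moved with the scaling and with the WT libraries. On depth normalization alone, windows lower numbered 248 in the double and 271 in the triple mutant (against 449 and 720), lower bins 6 in set-32, 21 in the triple mutant (against 33) and 4 in hrde-1, and OP50 against gfp RNAi had 0. With H3K9me3(-) windows from WT on gfp RNAi set-32 had 15 windows (against 9) and 1 bin, and hrde-1 1 bin. With OP50 left out the windows numbered 2 in set-32, 200 in the double and 407 in the triple mutant, and the bins 0 in the double and 17 in the triple mutant. With only the mutant and WT in the fit set-32 had 1 window and the triple mutant 362 windows and 6 bins.

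For Pol II, median scaling gave the triple mutant 145 windows (15 higher and 130 lower, against 58 and 13) and 21 bins, all lower (against 2 higher and 2 lower), set-32 and hrde-1 0 bins and oma-1 RNAi 17 windows, all higher, against 5, all lower. A pseudocount of 0.5 gave oma-1 RNAi 17 windows. With only the mutant and WT in the fit, the double mutant had 53 windows and 3 bins, the triple mutant 171 windows and 9 bins, and hrde-1 0 bins. Without feeding as the replicate block the triple mutant had 35 windows (against 71) and 0 bins, set-32 2 bins and the double mutant 0 bins. No block changed an H3K9me3 count by over 1.5 times. With medians in place of means, the arm over the middle differed from WT by -0.205 (against -0.53) in the double and -0.251 (against -0.573) in the triple mutant.

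Leaving out each library in turn, H3K9me3 windows ranged between 2 and 78 in set-32, 162 and 752 in the double mutant, 402 and 1052 in the triple mutant and 10 and 50 in hrde-1, with the ends of the double and triple mutant set by leaving out WT on OP50 (162 and 402) and on gfp RNAi (752 and 1052). OP50 feeding ranged between 0 and 3 windows and oma-1 RNAi stayed at 0. H3K9me3 bins ranged between 0 and 4 in set-32, 0 and 29 in the double mutant, 19 and 36 in the triple mutant and 0 and 1 in hrde-1. Pol II windows ranged between 24 and 53 in set-32, 4 and 27 in the double mutant, 8 and 73 in the triple mutant, 12 and 30 in hrde-1 and 0 and 30 for oma-1 RNAi, and Pol II bins between 2 and 10, 0 and 7, 0 and 5, and 1 and 2 in set-32, the double mutant, the triple mutant and hrde-1. The arm over the middle minus WT ranged between -0.316 and 0.0397 in set-32, -0.699 and -0.343 in the double mutant, -0.742 and -0.386 in the triple mutant and -0.193 and 0.164 in hrde-1 for H3K9me3, and between 0.0446 and 0.0595, -0.0187 and 0.0617, 0.0904 and 0.163, and -0.103 and 0.0438 for Pol II.

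Median scaling thus turned the direction of the oma-1 RNAi calls and the balance of the triple mutant's Pol II calls. No alternative turned the mean direction of a named region. For named regions and windows, 59 calls were followed, each for 1 mark, 1 mutant and 1 place, so that the same place can enter several times. Of these calls, 25 were kept in every alternative, and 34 were lost in at least 1, 23 of them when no library was left out. A call counted as kept where at least 3 of the region's called windows, or all where it had fewer, stayed called. The fall of H3K9me3 at 3448 to 3457 kb in hrde-1 and the fall of Pol II at 1819 to 1831 kb were among the 25. The Pol II fall still lost windows. Without its library on gfp RNAi the double mutant had 4 windows lower in Pol II in the whole arm, against 12. Without its library on oma-1 RNAi hrde-1 had 6, against 13. Where counts moved, the cause was not tested.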

Other observations

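The last 21 windows of the arm, from 3701 to 3721 kb, form no full bin. Their mean H3K9me3 was between 2.95 and 4.62 RPKM over the 15 libraries, and their mean Pol II between 21.2 and 41.2 RPKM over the 10 libraries.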
